A study of Homo sapiens with 26 samples.

Results

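Among 26 single cell-derived cell lines (SCDCLs) of pancreatic cancer, 12 carried almost no SMAD4 mRNA, and these 12 varied widely in TNFRSF6B. The 12 libraries with SMAD4 under 1 TPM (a level per library total and transcript length) were ranked by their TNFRSF6B TPM. The 4 libraries at the top of that order (TNFRSF6B-high) were then compared with the 4 at the bottom (TNFRSF6B-low) over all other genes. The groups were therefore chosen by the measured level of TNFRSF6B and not by any label, and a difference between them is an association with that level among 8 clones. The remaining 4 libraries (TNFRSF6B-middle) entered only the fit over all 12. Both parental lines, BxPC3 and Panc-1, come from ductal adenocarcinoma of the pancreas and are established lines, and each library was made once from 1 SCDCL grown from a single cell, so no clone had a replicate. The treatment label reads gemcitabine throughout, but the methods describe RNA collected once flasks were nearly confluent, with no mention of gemcitabine at that step, and nothing in the labels separates treated from untreated libraries. By label, the TNFRSF6B-high group was 2 BxPC3 and 2 Panc-1 libraries and the TNFRSF6B-low group 1 BxPC3 and 3 Panc-1 libraries. BxPC3 is known to lack SMAD4 and Panc-1 to carry it, so for 7 of the 12 libraries the SMAD4 level went against the label. Libraries are therefore named by their number and called "labelled BxPC3" or "labelled Panc-1".

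TNFRSF6B encodes decoy receptor 3 (DcR3), a secreted member of the TNF receptor family that has no membrane anchor and no death domain. DcR3 binds Fas ligand, LIGHT (TNFSF14) and TL1A (TNFSF15) and keeps them from their signalling receptors, and it is known as a protein that many epithelial tumours release. NF-kB is a family of transcription factors that TNF, interleukin 1 and other inflammatory signals switch on, and its targets include neutrophil-attracting chemokines. Interferons act through STAT proteins on a separate set of targets, many of them antiviral.

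The TNFRSF6B levels that set the groups are given here as a description. In the TNFRSF6B-high group the level was 418 TPM in library 4, 335 TPM in library 26, 226 TPM in library 21 and 196 TPM in library 1. The middle libraries held 193 TPM in library 24, 186 TPM in library 2, 169 TPM in library 6 and 163 TPM in library 16. The TNFRSF6B-low group held 134 TPM in library 25, 127 TPM in library 7, 112 TPM in library 5 and 23.9 TPM in library 3. The range from library 3 to library 4 was 17.5-fold. Most of that range lay at its ends, since the libraries from the fourth to the eleventh place fell in one gradual slope. The upper boundary ran between 196 and 193 TPM, a gap no larger than the counting error alone, which was 1.43% of the value in library 1 and 1.60% in library 24. The lower boundary ran between 163 and 134 TPM. TNFRSF6B also shares exons with a readthrough transcript of its neighbour RTEL1, so the split of reads between them is uncertain. That readthrough gene, RTEL1-TNFRSF6B, averaged 40.8 ± 11.3 CPM in the TNFRSF6B-high and 44.1 ± 11.8 CPM in the TNFRSF6B-low libraries (CPM is the count relative to the scaled library total, here and below as mean ± SD, n = 4).

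**Figure D1:**
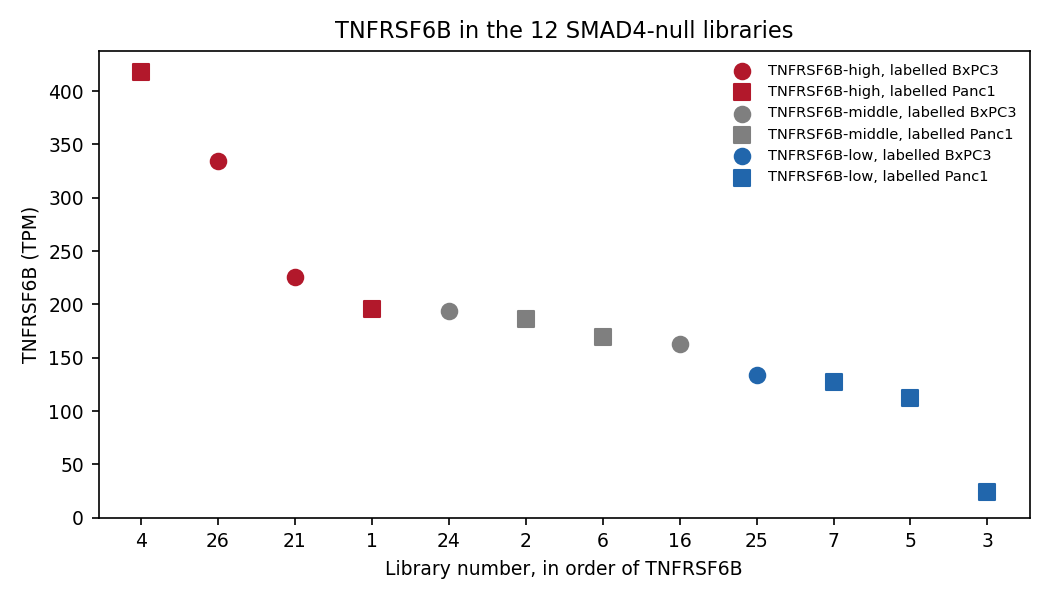
TNFRSF6B level (vertical axis, TPM) in each of the 12 SMAD4-null libraries, in order of that level (horizontal axis, library number). Colour gives the group and the symbol gives the labelled line, 1 point a library; library 3 stands alone at 23.9 TPM and libraries 1 and 24, on either side of the upper boundary, lie at 196 and 193 TPM.

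The start regions of TNFRSF6B and of a called gene from each of 2 lists, NF-kB targets and interferon-stimulated genes, are shown to let their sequences be compared. Each window runs from 250 bases before to 50 bases after the RefSeq transcription start on GRCh38.p14, printed along the gene's strand. The TNFRSF6B window is chr20:63696402-63696701 (plus strand), the CXCL1 window is chr4:73869143-73869442 (plus strand) and the IFIT1 window is chr10:89392373-89392672 (plus strand). Capitals mark matches on either strand to the NF-kB consensus or to the core of the interferon-stimulated response element (ISRE), TTTCNNTTTC.
TNFRSF6B: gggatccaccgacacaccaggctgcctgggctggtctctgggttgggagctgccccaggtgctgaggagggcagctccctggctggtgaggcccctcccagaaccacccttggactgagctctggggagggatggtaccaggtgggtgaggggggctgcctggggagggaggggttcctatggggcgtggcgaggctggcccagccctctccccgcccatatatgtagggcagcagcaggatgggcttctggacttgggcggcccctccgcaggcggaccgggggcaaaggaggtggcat
CXCL1: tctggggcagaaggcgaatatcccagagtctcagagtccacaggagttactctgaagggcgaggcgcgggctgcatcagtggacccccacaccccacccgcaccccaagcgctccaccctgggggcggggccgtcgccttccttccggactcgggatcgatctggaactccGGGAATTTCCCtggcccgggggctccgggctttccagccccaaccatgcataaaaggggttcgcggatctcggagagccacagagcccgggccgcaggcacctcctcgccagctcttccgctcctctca
IFIT1: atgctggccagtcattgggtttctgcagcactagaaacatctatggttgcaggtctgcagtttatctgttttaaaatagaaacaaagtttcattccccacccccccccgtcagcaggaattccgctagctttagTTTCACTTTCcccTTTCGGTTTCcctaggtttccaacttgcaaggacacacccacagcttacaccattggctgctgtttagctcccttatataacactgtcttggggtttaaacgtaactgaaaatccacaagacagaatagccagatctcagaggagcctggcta
The CXCL1 window held the NF-kB consensus once, read on both strands, and the IFIT1 window held the ISRE core at 2 places. Neither run of letters was found in the TNFRSF6B window. Over all RefSeq windows of this length, 11.3% held the NF-kB consensus and 3.57% the ISRE core. Of the NF-kB target genes called higher below, 20 had a window, and 11 of their 29 windows (37.9%) held the NF-kB consensus. Of the interferon-stimulated genes called higher, 11 had a window, fewer than 80% of them, so that no share was taken over that list. A match is a description of letters and no evidence of binding.

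The deposited estimated counts summed to between 27144920 and 34945608 in the 12 libraries, and 16376 to 17641 genes had at least 5 counts. SMAD4 was at most 0.0440 TPM in the 12 libraries and at least 28.1 TPM in the other 14. In those 14 libraries TNFRSF6B reached at most 1.26 TPM, and 8 of them held no count of it. The share of counts from mitochondrial genes was 1.88% to 3.87% in the TNFRSF6B-high and 1.08% to 2.20% in the TNFRSF6B-low libraries. Its part in the results below was not tested. Fibroblast, immune and endothelial marker lists held no called gene. Over the immune list the summed level was 21.1 to 43.1 CPM in the TNFRSF6B-high and 5.95 to 28.7 CPM in the TNFRSF6B-low libraries, most of it from CD68, while PTPRC, the pan-leukocyte marker, stayed at or below 0.418 CPM in all 8. Summed fibroblast markers ran from 26.1 to 70.3 CPM in the TNFRSF6B-high and from 34.6 to 46.0 CPM in the TNFRSF6B-low libraries, with LUM at or below 0.0760 CPM. Summed endothelial markers ran from 5.04 to 12.7 CPM and from 4.18 to 21.3 CPM, with KDR at 0 in all 8 libraries.

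The comparison asked which genes differ with TNFRSF6B among clones that all lack SMAD4. Chemokine and cytokine genes such as CXCL8, CXCL1, CCL20 and IL6, the acute phase genes SAA1 and SAA2, and 14 of 23 interferon-stimulated genes were higher in the TNFRSF6B-high libraries, whereas the keratins KRT13 and KRT15, the adhesion molecule CEACAM6 and the epithelial transcription factor GRHL2 were lower. Of 15983 genes tested with the quasi-likelihood test of edgeR, 685 (4.29%) passed an adjusted p of 0.05. There were 469 genes (2.93%) higher and 216 (1.35%) lower in the TNFRSF6B-high group. Scaled by library totals alone, the split was 386 higher and 383 lower, 50.2% higher in place of 68.5%. The median log2 fold change was 1.32 over the genes called higher and -0.83 over those called lower. Large differences were mainly on one side, as 130 of the genes called higher and 9 of those called lower changed by over 2 on the log2 scale. In 670 of the 685 the 4 high and 4 low libraries did not overlap, against 13.5% of all genes tested. The number of calls rested on single clones: it was 107 without library 5, 142 without library 26, 275 without library 3 and 318 without library 21. With the labelled line as a covariate 267 genes were called, with the 6 highest against the 6 lowest libraries 116, and with DESeq2 1821. All 685 genes kept their sign in each fit that left out 1 library, and 85 were called in every such fit. Each p-value measures the spread between libraries of single clones, which may be technical in part.

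Targets of TNF signaling through NF-kB held more genes called higher in the TNFRSF6B-high libraries than any other of the 20 lists. They were also the largest of these lists by measured members, and 14 of 23 interferon-stimulated genes were a similar share. Of 36 measured members 22 were called higher and none lower, with a median log2 fold change of 1.36 beside -0.01 over all genes tested. The count was 13 without library 26 and 12 without library 5, and 11 members were called in every fit that left out 1 library. CXCL8, which encodes the neutrophil chemoattractant interleukin 8, stood at 93.5, 99.0, 54.9 and 18.2 CPM in libraries 4, 26, 21 and 1. It stood at 3.95, 2.95, 1.21 and 1.20 CPM in libraries 25, 7, 5 and 3. Every high library lay well above every low one, and the log2 fold change was 4.82 ± 0.62 (SE, adjusted p = 0.011, edgeR). CXCL1, a chemokine that acts on the same receptor as interleukin 8, stood at 251, 125, 66.6 and 30.8 CPM in the high libraries. Its values in the low libraries were 9.63, 8.05, 3.12 and 2.90 CPM. The levels followed the order of TNFRSF6B within both groups, and the log2 fold change was 4.31 ± 0.71 (adjusted p = 0.018, edgeR), a call lost without library 26, 5 or 3.

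CCL20, the ligand of CCR6 on lymphocytes and dendritic cells, was at 26.4, 46.3, 24.5 and 6.17 CPM in libraries 4, 26, 21 and 1 and at 1.44, 1.66, 0.755 and 0.504 CPM in libraries 25, 7, 5 and 3. The groups did not overlap, and the log2 fold change was 4.55 ± 0.62 (adjusted p = 0.011, edgeR). IL6, an inducer of acute phase proteins, was at 13.2, 6.06, 3.0 and 4.12 CPM against 0.289, 0.614, 0.295 and 0.126 CPM. Here too the groups did not overlap (log2 fold change 4.28 ± 0.59, adjusted p = 0.010, edgeR). CSF2, which encodes the growth factor GM-CSF, averaged 4.15 ± 1.98 CPM in the high and 0.331 ± 0.236 CPM in the low libraries. The related chemokines CXCL2 and CXCL3 had log2 fold changes of 3.71 and 3.56. These 3 CXCL genes are near copies of each other, so reads may be divided among them with error.

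The remaining NF-kB targets that were called changed less. PTGS2, the inducible cyclooxygenase, averaged 180 ± 53.6 CPM in the high and 41.6 ± 22.2 CPM in the low libraries (log2 fold change 2.11). CSF1 had a log2 fold change of 1.95, the urokinase receptor PLAUR 1.92, LIF 1.81, the adhesion molecule ICAM1 1.67, ATF3 1.63, PLAU 1.57, BIRC3 1.56, IL1B 1.46, SOD2 1.13 and IL1A 1.02. ICAM1 was at 232, 337, 356 and 229 CPM in libraries 4, 26, 21 and 1 and at 118, 117, 57.3 and 67.5 CPM in libraries 25, 7, 5 and 3. Genes that act as brakes on NF-kB were higher as well. NFKBIA, the inhibitor that holds NF-kB in the cytoplasm, averaged 144 ± 26.3 against 73.5 ± 8.98 CPM (log2 fold change 0.96). TNFAIP3, the ubiquitin-editing enzyme A20, had a log2 fold change of 1.25, its partner TNIP1 1.01 and the deubiquitinase CYLD 0.65. Of the 14 members that did not pass, NFKBIZ had a log2 fold change of 1.38 ± 0.35 (adjusted p = 0.054, edgeR), FOSL1 0.66 ± 0.21 and JUNB 0.09 ± 0.14. TNFAIP2 had -0.10 ± 0.25, so not every target of the list was on the same side.

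**Figure D2:**
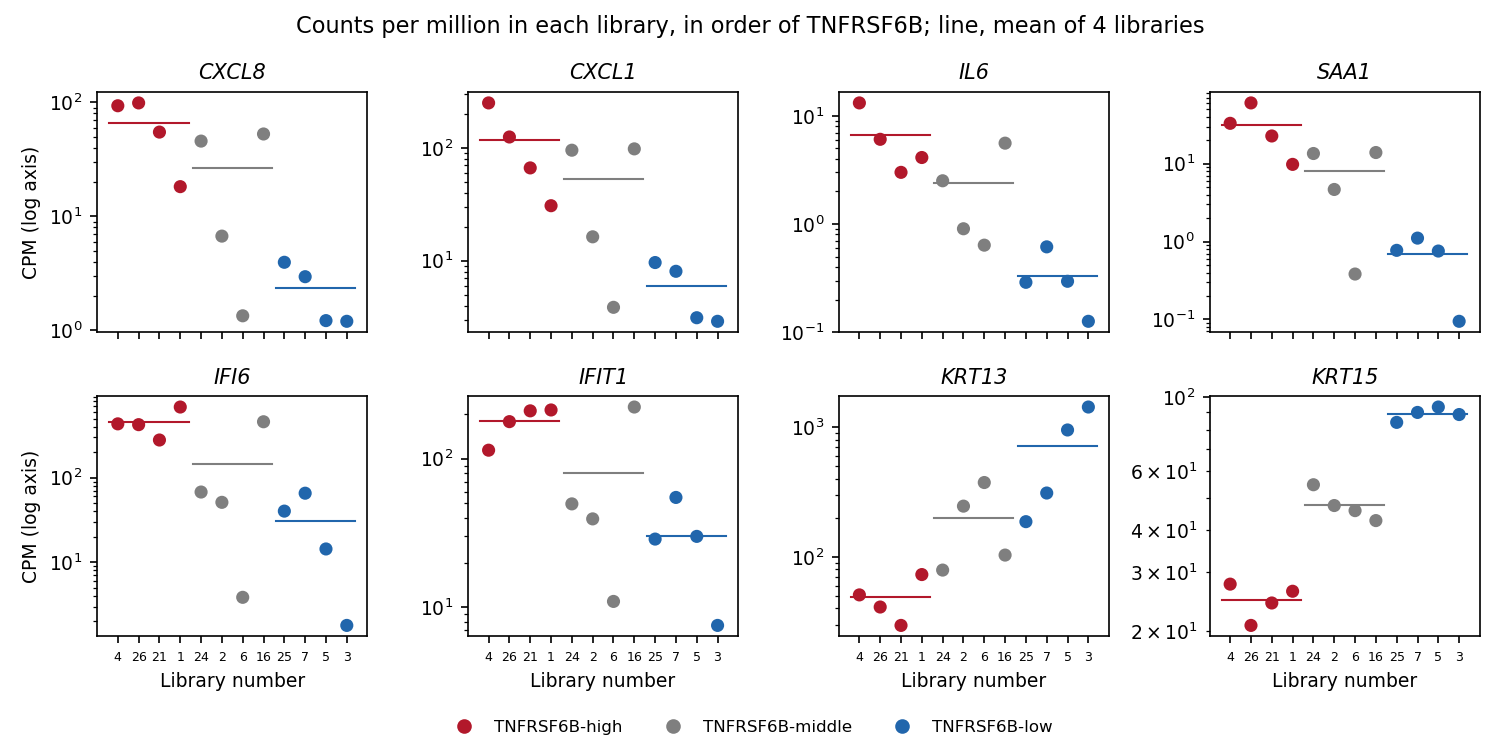
CPM (vertical axes, log scale) of 8 genes in the 12 libraries, ordered by TNFRSF6B from library 4 at the left to library 3 at the right; each point is 1 library and each line the mean of 4. In all 8 genes the red TNFRSF6B-high points and the blue TNFRSF6B-low points do not overlap, while the grey middle libraries spread widely in all but KRT15, with library 16 at 52.8 CPM and library 6 at 1.34 CPM of CXCL8.

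Interferon-stimulated genes had the highest median log2 fold change among the 20 lists, 2.04 over 23 measured members. All 23 had positive values and groups that did not overlap, and 14 were called higher. IFI6, an interferon-induced mitochondrial protein, stood at 433, 423, 279 and 684 CPM in libraries 4, 26, 21 and 1. In libraries 25, 7, 5 and 3 it stood at 40.3, 65.5, 14.4 and 1.80 CPM. The lowest high library thus lay above the highest low one, but the low libraries varied widely among themselves (log2 fold change 3.89 ± 0.89, adjusted p = 0.048, edgeR). ISG15, a ubiquitin-like modifier, was at 423, 400, 355 and 449 CPM against 55.01, 118, 96.6 and 28.3 CPM. Its log2 fold change was 2.44 ± 0.37 (adjusted p = 0.014, edgeR), and it was called in every fit that left out 1 library. IFIT1, which binds foreign RNA, was at 114, 178, 210 and 213 CPM in libraries 4, 26, 21 and 1 and at 28.8, 54.9, 30.02 and 7.56 CPM in libraries 25, 7, 5 and 3. RSAD2, which encodes the antiviral enzyme viperin, had a log2 fold change of 3.44, MX1 2.44, USP18 2.39, IFIT3 2.22, OAS1 2.04, BST2 1.94 and OAS3 1.89. Among the members not past the threshold, IFI27 had a log2 fold change of 2.66 ± 0.73 (adjusted p = 0.075, edgeR) and IFI44L 2.50 ± 0.78.

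These calls were unstable when single libraries were left out. The count of 14 was 2 without library 5, 6 without library 26, 6 without library 21, 7 without library 25 and 9 without library 1. Over the 12 libraries 1 of the 23 was called with the TNFRSF6B rank. The middle libraries show where the 2 orders part. Library 16, at 163 TPM of TNFRSF6B, held 458 CPM of IFI6 and 223 CPM of IFIT1. Library 6, at 169 TPM, held 3.86 CPM of IFI6 and 10.96 CPM of IFIT1. Libraries with nearly the same TNFRSF6B therefore lay at opposite ends of the interferon-stimulated range. The same pair differed in NF-kB targets, with 98.3 CPM of CXCL1 in library 16 and 3.86 CPM in library 6.

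**Figure D3:**
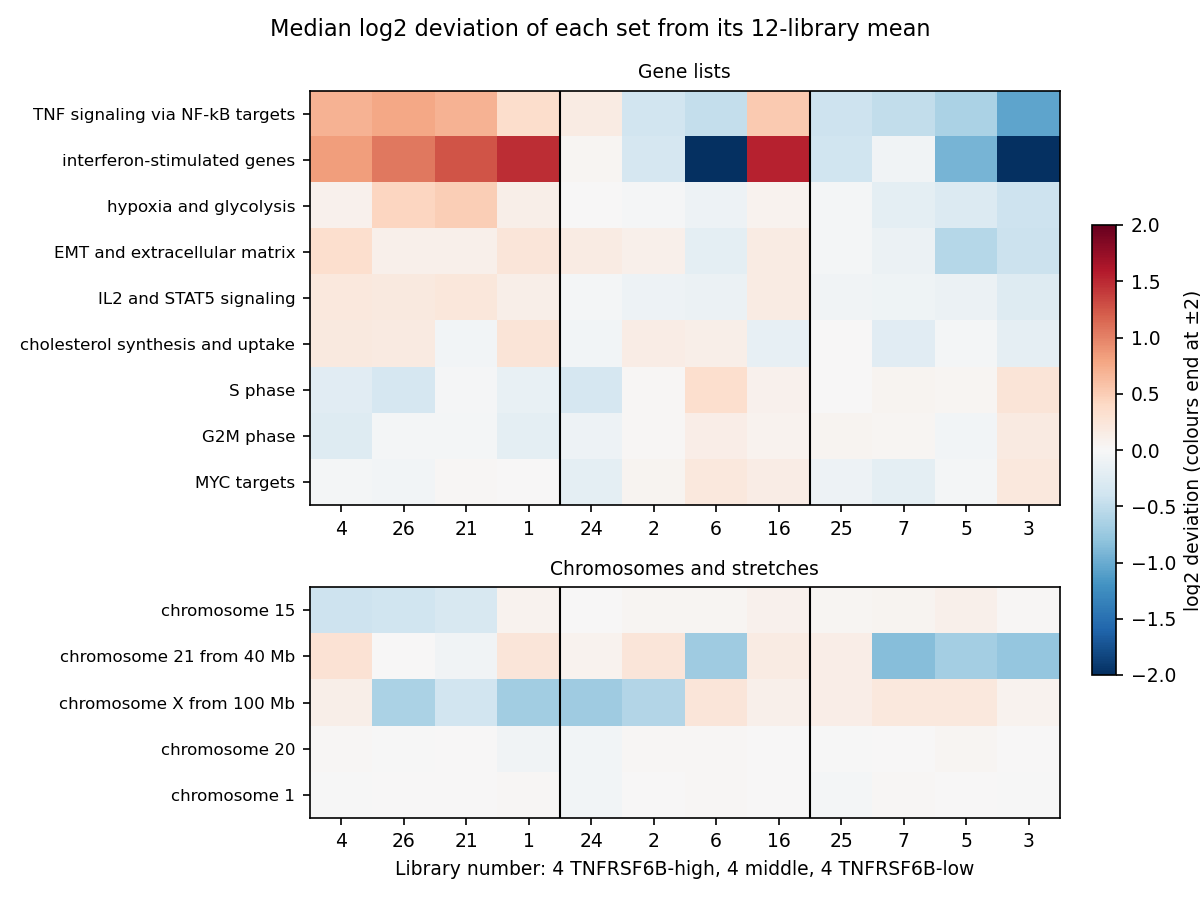
Median log2 deviation over the genes of each list (upper panel) and of each chromosome or stretch (lower panel). The deviation is from each gene's own median over the 12 libraries, although the title in the figure reads mean. Columns are in order of TNFRSF6B, with lines between the groups. NF-kB targets and interferon-stimulated genes had positive values in all 4 TNFRSF6B-high libraries and in the middle libraries 16 and 24. For interferon-stimulated genes in library 24 the value was 0.03. Chromosome 15 had negative values in libraries 4, 26 and 21.

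The family to which TNFRSF6B belongs changed in a few members. In the list of DcR3 ligands and their receptors, FAS, the death receptor for Fas ligand, was called, and the other 4 genes measured were not. It was at 38.4, 48.8, 39.3 and 28.2 CPM in libraries 4, 26, 21 and 1 and at 19.3, 21.8, 14.3 and 15.8 CPM in libraries 25, 7, 5 and 3. The groups did not overlap (log2 fold change 1.11 ± 0.19, adjusted p = 0.017, edgeR). LTBR, which binds LIGHT, had a log2 fold change of 0.15 ± 0.16, TNFRSF25, the receptor for TL1A, 0.39 ± 0.27 and TNFRSF14, a further receptor for LIGHT, 0.09 ± 0.23. CD160, a partner of TNFRSF14 that binds no DcR3 ligand, had -0.13 ± 0.60. FASLG, TNFSF14, TNFSF15 and BTLA were too low to be tested.

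Of 15 other death and decoy receptors and ligands, 3 were called higher. TNFSF9, the ligand of the T cell receptor 4-1BB, was at 11.2, 9.43, 10.3 and 3.02 CPM in the high and at 1.93, 1.51, 1.25 and 0.724 CPM in the low libraries. Library 1 stood well below the other 3 high libraries and still above the low group (log2 fold change 2.63 ± 0.43, adjusted p = 0.015, edgeR). The TRAIL receptors TNFRSF10A and TNFRSF10B, which carry death domains, had log2 fold changes of 1.03 ± 0.20 and 0.98 ± 0.21. TNFRSF10D, a decoy receptor for the same ligand, had 0.14 ± 0.16 (adjusted p = 0.67, edgeR). TNFRSF1A, the main TNF receptor, had 0.25 ± 0.15. Within death receptor signalling, CFLAR, which encodes the caspase-8 inhibitor c-FLIP, averaged 112 ± 28.2 against 43.8 ± 9.69 CPM (log2 fold change 1.35), and BIRC3, the inhibitor cIAP2, 33.4 ± 5.08 against 11.3 ± 4.77 CPM. XIAP, a direct caspase inhibitor, was lower, at 56.3 ± 14.9 against 101 ± 10.5 CPM (log2 fold change -0.86). XIAP lies on the stretch of chromosome X described below. The other 15 of 18 members, among them FADD and TRAF2, were not called, and the median of the list was 0.05 (-0.03 when scaled by library totals alone).

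Genes of matrix and epithelial-mesenchymal transition were called higher in 8 of 26 measured members and lower in none (median log2 fold change 0.71). None of the 8 was called without library 26. INHBA, the subunit of activin A, was at 124, 216, 144 and 132 CPM in libraries 4, 26, 21 and 1 and at 59.7, 60.6, 43.3 and 17.04 CPM in libraries 25, 7, 5 and 3. The groups did not overlap (log2 fold change 1.77 ± 0.36, adjusted p = 0.028, edgeR). The fibronectin receptor subunit ITGA5 had a log2 fold change of 1.53, fibronectin itself (FN1) 1.48, the transcription factor SNAI1 1.38, TGFBI 1.29, ACTA2 1.07 and the collagen cross-linking enzyme LOX 1.01. SNAI1 averaged 1.49 against 0.565 CPM and ACTA2 3.97 against 1.87 CPM, both low levels. ITGAV, THBS1 and MMP14 did not pass, with 0.05, 0.47 and 0.57. Of the 26 members 21 had a positive value. Among the others CDH2 had -0.23, TAGLN -0.46 and COL3A1, at under 1 CPM in both groups, -1.65, none of them called. COL1A1, a fibroblast marker, was at 37.6 ± 19.9 and 37.6 ± 5.79 CPM.

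Hypoxia and glycolysis genes were called higher in 7 of 24 (median 0.54). None of the 7 was called without library 5. EGLN3, an oxygen-sensing prolyl hydroxylase, was at 7.35, 7.87, 10.7 and 4.08 CPM in the high and at 1.89, 1.60, 1.18 and 0.567 CPM in the low libraries. Every high library exceeded every low one (log2 fold change 2.50 ± 0.40, adjusted p = 0.014, edgeR). ANGPTL4 had a log2 fold change of 1.93, ADM 1.31, P4HA1 1.25, LOX 1.01, VEGFA 0.93 and LDHA 0.87. The core glycolytic enzymes GAPDH, ENO1, ALDOA and PGK1 were not called, at 0.16, 0.12, 0.34 and 0.39. Of 23 genes of IL2 and STAT5 signaling 5 were called higher (median 0.62): the feedback inhibitor SOCS1 at 2.29, LIF at 1.81, TNFRSF8, which encodes CD30, at 1.65, SOCS3 at 1.17 and CCND3 at 0.84. CD44, in the same list, had 0.93 ± 0.33 (adjusted p = 0.14, edgeR). Of the 23 members 16 had a positive value. On the other side TNFRSF21 had -0.60 ± 0.31, and IKZF2 and CISH, chosen after their values were seen, had -0.81 and -0.72. None of them was called between the groups. With the rank over the 12 libraries 7 members were called higher and 1 lower. Among 21 genes of cholesterol synthesis and uptake, 2 were called higher, and the synthesis enzyme SQLE had 0.62 ± 0.14 (median 0.38).

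Keratins 13 and 15 and CEACAM6 were among the genes lower in the TNFRSF6B-high libraries. KRT13, a keratin of stratified mucosa, was at 50.8, 41.0, 29.6 and 72.9 CPM in libraries 4, 26, 21 and 1. It was at 187, 311, 952 and 1431 CPM in libraries 25, 7, 5 and 3. The low libraries climbed as TNFRSF6B declined and did not meet the high ones (log2 fold change -3.91 ± 0.66, adjusted p = 0.018, edgeR). KRT15, a keratin of basal epithelial cells, had the smallest p-value of all genes tested. It was at 27.7, 20.8, 24.3 and 26.3 CPM in the high, at 54.8, 47.5, 45.8 and 42.8 CPM in the middle and at 84.0, 90.0, 93.4 and 88.7 CPM in the low libraries. The 3 groups formed 3 separate steps with little spread inside each, and the log2 fold change was -1.86 ± 0.13 (adjusted p = 0.00033, edgeR). CEACAM6, a cell adhesion glycoprotein of epithelial tumours, was at 1.24, 5.55, 2.47 and 5.21 CPM against 22.2, 18.01, 66.5 and 12.7 CPM (log2 fold change -3.05 ± 0.64).

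GRHL2, a transcription factor that maintains epithelial junctions, was at 3.09, 0.885, 2.20 and 2.49 CPM in the high and at 11.1, 7.10, 10.4 and 7.84 CPM in the low libraries (log2 fold change -2.08 ± 0.35, adjusted p = 0.016, edgeR). KRT19, a keratin of ductal epithelium, averaged 1231 ± 176 against 2355 ± 244 CPM (-0.95), and the tight junction protein TJP1 averaged 53.3 ± 12.1 against 86.9 ± 3.59 CPM (-0.72). TJP1 lies on chromosome 15, which is described below. In the list of 19 genes for epithelial adhesion and keratins these 3 were called lower. OVOL1, an epithelial transcription factor, was called higher (1.22 ± 0.30). The other 15 were not called, with DSP at 0.01 ± 0.17 and KRT18 at -0.04 ± 0.21. The list went both ways, with 9 of the 19 genes positive and a median of -0.04. The other genes among the 12 with the largest log2 fold changes on the lower side were CCDC8 (-1.97), the villin-like gene VILL (-1.94), the transcriptional corepressor HR (-1.84), the ectodysplasin receptor EDAR (-1.82), EPB41L1 (-1.73), SYT8 (-1.72), FAM83H (-1.65) and MBNL3 (-1.57). MBNL3 lies on the stretch of chromosome X described below. Of the Moffitt tumour subtype lists, 1 of 6 measured classical genes (CEACAM6) and 1 of 18 basal-like genes (KRT15) were called, both lower, with medians of -0.29 and 0.24.

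**Figure D4:**
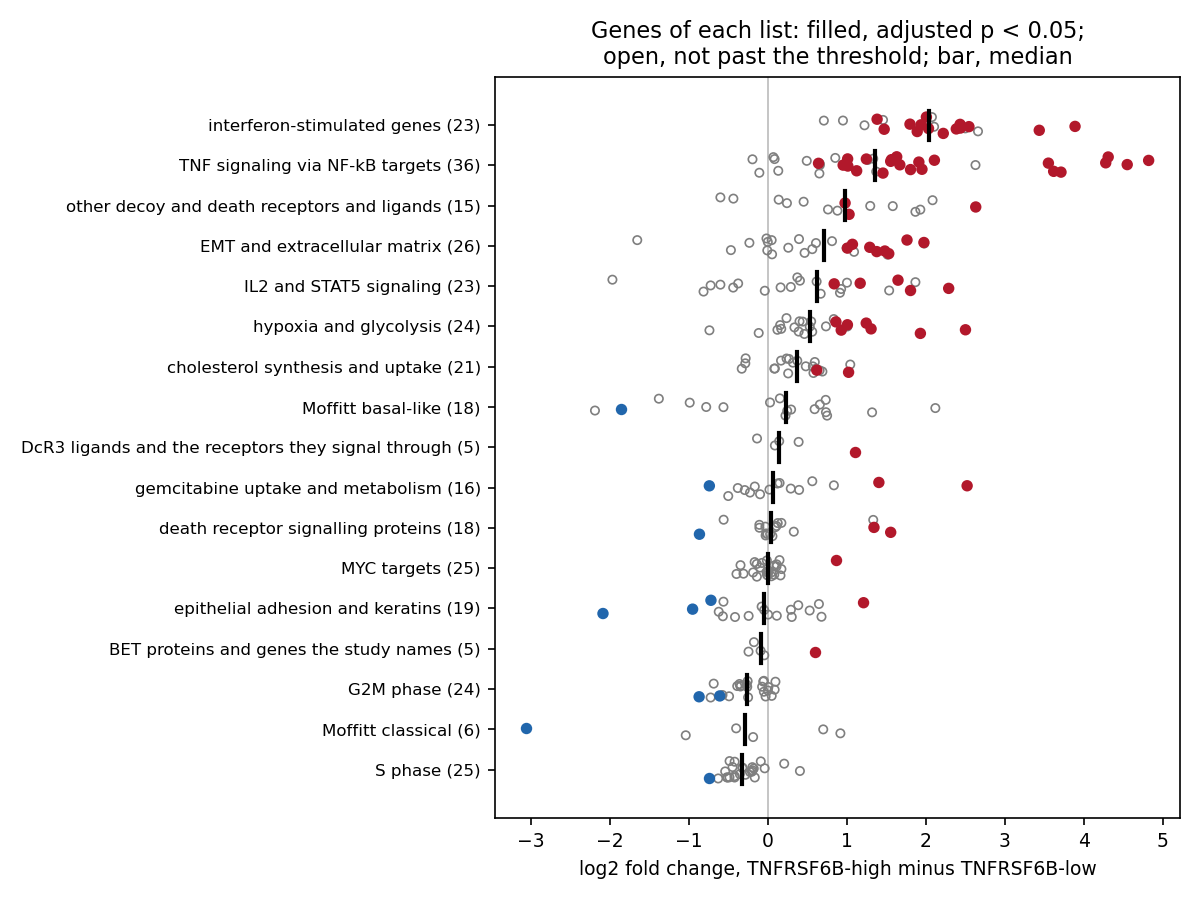
Log2 fold change of TNFRSF6B-high minus TNFRSF6B-low (horizontal axis) for every measured gene of 17 lists, 1 point a gene, with the number measured after each name. Filled points passed an adjusted p of 0.05 (red higher, blue lower), open points did not, and black bars are medians, of which the highest are 2.04 for interferon-stimulated genes and 1.36 for NF-kB targets.

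Few cell cycle genes were called between the groups, and all of these were lower. Over all genes tested 4.29% were called in either direction and 1.35% were called lower. More cell cycle genes were called with the rank over the 12 libraries, as given below. Of 25 S phase genes 1 was called, TYMS, the thymidylate synthase, at 78.6 ± 7.67 against 130 ± 17.3 CPM (log2 fold change -0.74 ± 0.13, adjusted p = 0.018, edgeR). The median over the 25 was -0.32, and 2 of them had a positive value. Of 24 genes of the G2M phase, the spindle gene NUSAP1 (-0.87) and the checkpoint kinase BUB1B (-0.61) were called lower, both on chromosome 15, and the median was -0.26. MKI67 had -0.72 ± 0.26 (adjusted p = 0.15, edgeR). The 25 MYC targets had a median of 0.00 (-0.08 when scaled by library totals alone), with LDHA as their single call.

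Of 16 genes for uptake and metabolism of gemcitabine, 2 were called higher and 1 lower. SAMHD1, a hydrolase of deoxynucleotide triphosphates, was at 142, 144, 177 and 333 CPM in libraries 4, 26, 21 and 1 and at 93.9, 91.4, 65.6 and 46.5 CPM in libraries 25, 7, 5 and 3 (log2 fold change 1.41 ± 0.31, adjusted p = 0.036, edgeR). SLC28A3, a concentrative nucleoside transporter, was at 1.59 ± 1.18 against 0.269 ± 0.0683 CPM (2.53 ± 0.60). TYMS was the gene called lower. RRM1 and RRM2, the subunits of ribonucleotide reductase, had -0.22 ± 0.13 and -0.16 ± 0.14. BRD3 and BRD2, which encode bromodomain proteins, had -0.09 and -0.04, and neither was called. The nucleosome-binding gene HMGN5 had -0.17 ± 0.27.

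Several genes outside the lists stood at the top of the order. ACTN2, an alpha-actinin of muscle, was at 6.94, 7.19, 7.98 and 0.465 CPM in libraries 4, 26, 21 and 1 and at 0.0321, 0.246, 0 and 0 CPM in libraries 25, 7, 5 and 3. Library 1 was closer to the low group than to the other high libraries, and the fitted log2 fold change of 6.22 rests on counts near 0. KIT, a receptor tyrosine kinase, was at 13.9, 5.35, 2.77 and 1.23 CPM against 0.385, 0.246, 0.0328 and 0.126 CPM (4.84 ± 0.85). The scavenging chemokine receptor ACKR3 was at 3.47, 27.2, 21.5 and 7.67 CPM against 0.610, 1.78, 0.426 and 0.441 CPM (4.18 ± 0.74). SAA1, an acute phase protein, was at 33.0, 60.3, 22.7 and 9.79 CPM against 0.770, 1.11, 0.755 and 0.0945 CPM (5.51 ± 0.71, adjusted p = 0.011, edgeR). SAA2 had 5.39 ± 0.76, and since the 2 genes are nearly identical their reads cannot be divided with certainty. LCN2, an iron-scavenging antimicrobial protein, was at 153, 92.7, 47.9 and 11.6 CPM against 2.76, 4.12, 3.38 and 4.63 CPM (4.34 ± 0.70), and DUOXA2, a maturation factor for a hydrogen peroxide-producing oxidase, had 4.25 ± 0.78.

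The rank of TNFRSF6B over all 12 libraries was the check on the comparison of 4 with 4. A fit with the rank as a numeric term called 1089 of 16416 genes (6.63%), 667 higher and 422 lower with TNFRSF6B. Of the 685 genes called between the groups 525 were also called with the rank, which is 76.6% of the first list and 48.2% of the second, and all 525 had the same sign. Both fits share the 8 libraries of the groups. Without library 3 the rank fit called 256 genes, without library 26 it called 279, without library 5 it called 390, without library 21 it called 464, without library 1 it called 562 and without library 4 it called 631. NF-kB targets had 22 of 36 members called higher with the rank, S phase genes 8 of 25 lower and G2M phase genes 4 of 24 lower.

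Spearman's rho with TNFRSF6B over the 12 libraries is given as a description, since 8 of the 12 are the libraries of the groups. It was at least 0.8 in size for 436 genes tested and 237 genes called. SLC17A5, a lysosomal sialic acid transporter, followed TNFRSF6B most closely, with rho = 0.96. It ran from 13.1, 23.7, 16.8 and 16.2 CPM in libraries 4, 26, 21 and 1 over 11.6, 12.4, 12.3 and 11.2 CPM in libraries 24, 2, 6 and 16 to 10.8, 10.6, 10.5 and 8.91 CPM in libraries 25, 7, 5 and 3. The middle and low libraries differed by little, and the gene was not called between the groups (log2 fold change 0.77 ± 0.20, adjusted p = 0.054, edgeR). SLCO4A1, an organic anion transporter gene, had rho = 0.95 and ran from 185, 86.3, 116 and 146 CPM over 64.3, 83.3, 67.4 and 80.0 CPM to 56.9, 54.1, 46.9 and 46.5 CPM. Its 3 groups did not overlap (1.37 ± 0.21, adjusted p = 0.011, edgeR). SLC2A6, a glucose transporter, had rho = 0.94, and the metalloproteinase ADAM15 and the disulfide isomerase PDIA5 each had 0.93. CBARP had 0.94 and TM2D1 had 0.93. On the other side EML4, a microtubule-binding protein, had rho = -0.95 and ran from 70.5, 65.6, 74.2 and 69.5 CPM over 83.7, 81.1, 88.4 and 89.3 CPM to 96.1, 92.6, 103 and 104 CPM. The steps were narrow and regular (log2 fold change -0.51 ± 0.11). SNUPN, SGK3 and SOX13 each had rho = -0.94, KCTD1 had -0.94, SOS2 had -0.93, and YY1AP1 and ZYG11B had -0.92. SNUPN lies on chromosome 15, which is described below.

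Of 38 genes tested within 1 Mb of TNFRSF6B on chromosome 20, 1 was called, HELZ2, which is named because its values were seen (1.10 ± 0.25, adjusted p = 0.038, edgeR), and the median log2 fold change was -0.05. The share is 2.63%, beside 4.29% over all genes tested. RTEL1 had -0.37 ± 0.25, ARFRP1 -0.24 ± 0.12, ZGPAT -0.18 ± 0.14 and STMN3 0.19 ± 0.20, none of them called. On the rest of chromosome 20, 13 of 353 genes were higher and 4 lower, with a median of -0.01. SLCO4A1, named above for its rho of 0.95, is among the 13 and lies just outside the 1 Mb.

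Whole stretches of other chromosomes differed between clones, which was seen in the values and is given with no test. On chromosome 15, 37 of 516 genes were called lower and 6 higher, and the median log2 fold change was -0.34. The median deviation of its genes was -0.42 in library 4, -0.41 in library 26 and -0.33 in library 21, but 0.06 in library 1 and between 0.01 and 0.10 in the other 8. From 40 Mb to the end of chromosome 21, where MX1 lies, the median was -0.85 in library 7, -0.68 in library 5, -0.77 in library 3 and -0.71 in the middle library 6, and between -0.07 and 0.29 elsewhere. From 100 Mb to the end of chromosome X, where XIAP lies, it was -0.64 in library 26, -0.39 in library 21, -0.69 in library 1, -0.71 in library 24 and -0.59 in library 2, and between 0.07 and 0.24 in the other 7. Libraries with either label shared the shifts of chromosomes 15 and X, while the 4 libraries with the chromosome 21 shift were all labelled Panc-1. Other shifts did not follow the groups. On chromosome 13 the median deviation was -0.33 in library 4 and 0.36 in library 1, both TNFRSF6B-high. It was -0.25 in library 25 and 0.25 in library 3, both TNFRSF6B-low. On chromosome 9 it was 0.27 in library 4 alone. With the genes of chromosomes 15, 21 and X left out of the count, 446 genes were higher and 151 lower, 74.7% higher.

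The genes named above can be set beside the 14 libraries that express SMAD4, in which TNFRSF6B was nearly absent. CXCL8 had a median of 1.90 TPM there (0.324 to 16.3 TPM) and of 18.6 TPM (1.86 to 145 TPM) in the 12 SMAD4-null libraries. CCL20 had a median of 0.394 TPM against 20.02 TPM. For IFI6 the medians were 17.1 and 170 TPM, and the lowest SMAD4-null library, at 4.50 TPM, lay below the lowest of the 14, at 11.5 TPM. KRT13 was at most 0.929 TPM in the 14 libraries and at least 33.2 TPM in the 12, so that it was lower with TNFRSF6B among the 12 and yet absent or nearly so where TNFRSF6B was lowest of all. KRT15 had medians of 14.4 and 46.6 TPM. These values compare 2 sets of clones that differ in much else, and no test was made between them.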

How the data were processed

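Polyadenylated RNA of each SCDCL was sequenced once. The authors mapped the reads to the human transcriptome (Ensembl GRCh38.103) with kallisto 0.46.1 and deposited, for 41078 genes, TPM, expected (estimated) counts remade from TPM and transcript length, and 30 repeat estimates of those counts, not used here. The expected counts that the authors deposited were rounded, and their totals ranged from 27144920 to 34945608. Assignment of reads among similar transcripts adds error that counts alone do not show. Identifiers were matched to GENCODE 44 (36315 genes), and 28 called genes had no match.

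The members, gene lists and tests were chosen with earlier results of these data known. SMAD4-null libraries were those under 1 TPM of SMAD4, and the 4 with the highest TNFRSF6B TPM were compared with the 4 with the lowest. The study tested with sleuth; here genes were tested with edgeR 4.0.16 (R 4.3.3) by the quasi-likelihood test after filterByExpr and TMM scaling, with Benjamini-Hochberg adjustment over all genes tested. TNFRSF6B, RTEL1-TNFRSF6B and ARFRP1, which overlap, were fitted but left out of the counts. A second fit used the rank of TNFRSF6B over 12 libraries. CPM used TMM over the 12 libraries. Lists were described by counts and medians, without a set test. SE is the log2 fold change divided by the square root of F. On data simulated for this comparison with 15986 genes, the test recovered 59% of 2-fold and 98% of 4-fold changes and called 12 unchanged genes.

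Named genes were those called in a list, up to 4 further members of a list with the highest CPM, 12 in each direction by fold change (groups not overlapping, at least 5 CPM in the higher group), the 8 with the highest and lowest rho, and TNFRSF6B with its neighbours. Some genes that the rule names are not reported here. Genes outside this rule are said to have been chosen after their values were seen. Promoter windows were taken from RefSeq (GRCh38.p14). Alternatives were DESeq2 1.42.0, limma 3.58.1, other scalings, filters, group sizes and thresholds, leaving out each library, and a covariate for the labelled line. Python 3.11.15 with pandas 2.3.3, scipy 1.17.1 and matplotlib 3.10.9 was used for the rest. Gemcitabine response was not analysed here.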

Additional observations from a re-analysis of the deposited data

Results flagged for a closer look

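Of 102 groups of 4 libraries tested for a library that stands apart (Dixon's test), 1 was flagged, where chance alone flags about 1 in 20. TNFSF9 in library 1 was at 3.02 CPM, while the other 3 TNFRSF6B-high libraries lay between 9.43 and 11.2 CPM. The flag does not cover every library that stood apart. ACTN2 was at 0.465 CPM in library 1 and at 6.94 to 7.98 CPM in libraries 4, 26 and 21. ADAM15 was at 220 CPM in library 25 and at 204 CPM in libraries 7, 5 and 3. Neither was flagged. Outside the 12 libraries, TNFRSF6B reached 1.264 TPM (28.6 estimated counts) in library 18, which expresses SMAD4 at 30.8 TPM. That is above the limit of 3 counts that a count of 0 allows, and 3 of the 14 SMAD4-expressing libraries were above it.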

How the results depend on the processing

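All 685 calls rest on single libraries of clones, the upper boundary divides libraries that hardly differ in TNFRSF6B, and no named gene that was called reversed under any alternative run, though medians near 0 and genes not called may change sign between scalings. The 685 genes became 1821 with DESeq2, 267 with the labelled line as a covariate, 116 with the 6 highest against the 6 lowest libraries, 1529 at an adjusted p under 0.1, and 107 to 700 when 1 library was left out. The 1089 genes called with the rank became 402 with log2 TNFRSF6B as the term, 710 with the labelled line as a covariate, 1979 with DESeq2, and 256 to 1469 with 1 library left out. The 22 NF-kB targets called higher became 1 with 6 against 6 libraries and 12 to 22 with 1 left out. The 14 interferon-stimulated genes became 9 with no filter on low counts, 1 with 12 libraries in 3 groups, 6 with the labelled line as a covariate, 6 with 3 against 3 libraries, 0 with 6 against 6, and 2 to 16 with 1 left out. That count of 0 came from edgeR, in a fit where 2754 genes had an unadjusted p under 0.05. Of 100 named genes called, 100 kept their call with DESeq2, 98 with limma and 50 with the labelled line as a covariate, and 12 of 99 with 6 against 6 libraries. Leaving out the genes of chromosomes 15, 21 and X, an alternative chosen after seeing the data, left 597 calls. The cause of these shifts was not tested. No paired analysis was possible because each library number belongs to 1 clone and no number is shared between the groups.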

Other observations

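The lists of this section were written after their values had been seen, so that their counts are descriptions. Acute phase and antimicrobial genes were higher in 8 of 9 measured members with a median log2 fold change of 3.72. Complement C3 averaged 197 CPM in the TNFRSF6B-high and 18.03 CPM in the TNFRSF6B-low libraries, the elastase inhibitor PI3 117 and 8.79 CPM, its relative SLPI 91.9 and 29.0 CPM, and complement factor B (CFB) 6.30 and 1.65 CPM. The oxidase DUOX2, at 76.5 and 6.47 CPM, was the member that did not pass (adjusted p = 0.052, edgeR). Of 12 genes for antigen presentation on MHC class I, 5 were called higher, among them the peptide transporters TAP1 (log2 fold change 1.94 ± 0.23) and TAP2 (1.16 ± 0.13) and the trimming peptidase ERAP2 (0.69 ± 0.14). HLA-B was called too, at 1.65 CPM in the TNFRSF6B-high libraries, and its reads may be divided among copies from alternative haplotypes. B2M had 0.92 ± 0.38 (adjusted p = 0.19, edgeR).

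Of 36 core and linker histone genes, 14 were called lower and none higher, with a median log2 fold change of -0.83. The linker histone H1-2 averaged 124 CPM in the TNFRSF6B-high and 255 CPM in the TNFRSF6B-low libraries, H2AC6 95.0 and 195 CPM, and H4C15 47.0 and 121 CPM. The S phase list had a median of -0.32 beside it. Histone genes are near copies of each other and most of their mRNA has no poly(A) tail, whereas the libraries were made from polyadenylated RNA. Among 17 keratins 3 were called lower and KRT16 was called higher, at 5.44 against 1.30 CPM. KRT14 had 3.04 ± 0.92 and KRT4 -5.03 ± 1.5, neither past the threshold (adjusted p = 0.10 and 0.096, edgeR).

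APOE, chosen after its values were seen, had the smallest p-value among the genes called higher. It was at 30.7, 23.8, 23.6 and 17.8 CPM in libraries 4, 26, 21 and 1 and at 4.40, 4.61, 4.59 and 3.56 CPM in libraries 25, 7, 5 and 3 (log2 fold change 2.47 ± 0.20, adjusted p = 0.00071, edgeR). Of the 12 libraries, 25 and 7 were the closest pair over all genes, with a root mean square log2 difference of 0.37, and 26 and 3 the farthest, with 0.81.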
